A study of Mus musculus with 22 samples.

Results

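The step compared here is the last interval of an induction course in which mouse embryonic fibroblasts of strain C57BL/6 were converted directly towards neural progenitor cells. It sets the 2 libraries labelled day 21 against the 2 libraries labelled day 17, chosen by those labels alone, so 4 of the 22 libraries of the series carry the comparison. All 4 libraries share the strain, the starting cells and the induction. Which factors were delivered to the cells is not stated. The 2 libraries of day 14, from the same course, served as the point before the step. The other 16 libraries (days 1, 4, 7 and 10, primary neurosphere-like clusters called pre-NPC, the established line giNPC P6 at passage 6, progenitors of neonatal brain called Brain-NPC, and teratoma) entered only the shared estimate of spread and the ranges given for single genes. Polyadenylated RNA was sequenced in paired ends of 100 bases.

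Direct conversion replaces the expression programme of one differentiated cell by that of another, and such cultures can hold converted cells, unconverted fibroblasts and side products next to each other. Neural progenitors can give rise to neurons, astrocytes and oligodendrocytes. Oligodendrocyte precursors pass through a committed stage, marked by the receptor Gpr17, before they make the lipids and proteins of myelin. Immediate early genes are switched on within minutes by growth factors, serum, depolarisation or handling, need no new protein for it, and their short-lived transcripts fall again within hours.

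Reads counted in genes numbered 5976121 and 4511767 at day 17 and 3084428 and 3243445 at day 21. The day 21 libraries were the shallowest of the 22, whose range was 3084428 to 9689996, so a gene with few reads has the larger counting error there. Replicates ranked genes alike, with Spearman's rho of 0.987 at day 17 and 0.981 at day 21. The p-values rest on the spread between replicates pooled over all 11 groups, not on that of day 17 and day 21 alone. Replicates of some other groups were less alike, with rho of 0.976 at day 4 and 0.974 in giNPC P6. Whether replicates are separate inductions is not stated, so this spread may be technical. Values are CPM (read counts scaled to library size by TMM) or, for genes whose counts held under 0.5 of those expected from FPKM and length, FPKM (fragments scaled by transcript length and by depth). Such a gene stayed on CPM where it was not tested on FPKM. Both libraries are given, in replicate order. Calls needed a 2-fold change or more and a Benjamini-Hochberg adjusted p below 0.05. The test was edgeR's quasi-likelihood test for CPM and limma's test on log2(FPKM + 1) for FPKM. Log2 fold changes are day 21 over day 17, with an approximate standard error, and tests were two-sided unless stated. Bulk RNA cannot tell fewer cells of a type from less RNA per cell.

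The day 17 libraries stood apart from both neighbours in single genes and in whole lists. Ddx3y, a Y-linked RNA helicase gene, had 133 and 117 CPM at day 14, 8.16 and 14.5 on day 17 and then 103 and 86.2 at day 21 (log2 fold change 3.08 ± 0.42, adjusted p = 4.18e-05). The Y-linked genes Eif2s3y and Kdm5d did not follow it. Eif2s3y had 161 and 140.4 CPM, then 139 and 164 and finally 176 and 162. Kdm5d had 89.8 and 83.5 CPM, then 102 and 105 and finally 100.4 and 109.7 on the same 3 days. Neither was called. Whether the day 17 cells came from the same cultures as those of day 14 and day 21 is not given. Time in culture and differences between cultures or harvests therefore cannot be told apart in this step, and the main gene lists are given against day 14 as well.

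In the step from day 17 to day 21, 622 of 14336 genes tested on counts were higher (4.34%) and 405 were lower (2.83%). On FPKM 423 of 15798 genes were higher (2.68%) and 360 were lower (2.28%). When each gene was read from the table that suits it, 672 of 16717 were higher (4.02%) and 472 lower (2.82%), with a median log2 fold change of 0 over all of them. These 2 shares are the background for every list below. The step before it was larger on the same scale, with 1181 genes higher at day 17 than at day 14 (7.06%) and 1427 lower (8.54%). Day 21 against day 14 gave 1125 higher (6.73%) and 1014 lower (6.07%). The counts of this step fell without day 17 replicate 1 to 411 higher and 266 lower, and without day 21 replicate 2 to 422 higher and 241 lower.

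Many genes turned at day 17. The change from day 17 to day 21 differed from the change from day 14 to day 17, by a test of the difference itself and by at least 2-fold, in 2519 genes. Of these 1273 moved more upwards in the later step (8.88%) and 1246 more downwards (8.69%). By a one-sided test against each neighbour, with at least a 2-fold difference from both, 167 genes were highest at day 17 (1.16%) and 232 were lowest there (1.62%). Both steps share the day 17 libraries, so an error in these libraries would enter both. Without day 17 replicate 1 the difference between the steps was called in 1489 genes, with 107 genes highest and 136 lowest at day 17, and without day 21 replicate 1 or 2 the genes highest at day 17 numbered 110 and 104.

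**Figure D1:**
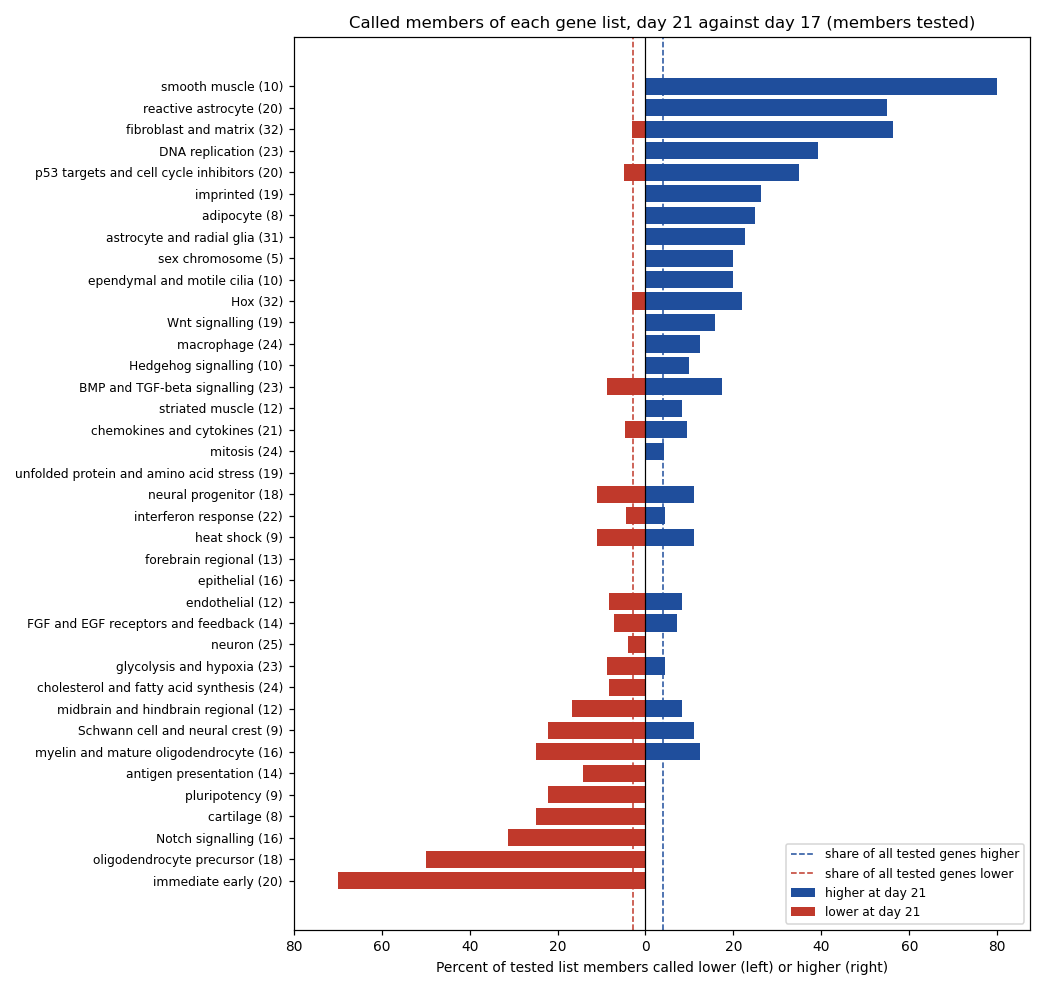
Percent of the tested members of each of 38 gene lists that were called higher (blue, to the right) or lower (red, to the left) at day 21 than at day 17, with the number of members tested in brackets; dashed lines give the shares of all tested genes, 4.02% higher and 2.82% lower. The immediate early list has 14 of 20 members lower and the smooth muscle list 8 of 10 higher.

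Of the 38 gene lists, immediate early genes had the largest median fall. Of 20 tested members 14 were lower at day 21 (70.0% against 2.82% of all genes), none was higher, and the list's median log2 fold change was -2.41. Fos, a subunit of the AP-1 transcription factor on chromosome 12, 86814851 to 86818219 (mm9), had 61.7 and 66.98 CPM at day 14, 2519 and 2500.3 on day 17 and then 66.3 and 75.1 at day 21. It fell 35.5-fold in this step (log2 fold change -5.15 ± 0.24, adjusted p = 8.67e-12). Fosb, a second AP-1 subunit on chromosome 7, 19888045 to 19895394, went from 579.9 and 622 CPM to 0 and 3.32 (log2 fold change -8.45 ± 0.44, adjusted p = 2.55e-11). Both day 17 libraries of these genes lay above every other library of the series: the 18 libraries of the other 9 groups ranged over 17.6 to 268 CPM for Fos and 0.559 to 58.6 for Fosb. Including these, the same held for 10 of the 20 members.

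The members that fell span several kinds of regulator. Of the zinc finger factors, Egr1 went from 2851 and 3279.9 CPM to 242 and 289 (log2 fold change -3.53 ± 0.15, adjusted p = 3.98e-12), after 359 and 404 at day 14. Egr2 had 125 and 143 CPM and then 17.7 and 14.2, and Egr3 had 39.02 and 38.9 CPM and then 4.42 and 5.43. Nr4a1, an orphan nuclear receptor, fell from 251 and 269.6 CPM to 5.37 and 5.43 (log2 fold change -5.59 ± 0.38, adjusted p = 2.17e-09). The feedback genes fell with the factors: Dusp1, a phosphatase of MAP kinases, went from 190.2 and 177 CPM to 8.84 and 7.23 (log2 fold change -4.51 ± 0.29, adjusted p = 6.93e-10). Zfp36, which destabilises AU-rich messages, went from 149.9 and 161 CPM to 8.21 and 7.54 (log2 fold change -4.30 ± 0.36, adjusted p = 5.6e-08). Ier2 fell from 524 and 505 CPM to 23.99 and 29.8 (log2 fold change -4.25 ± 0.26, adjusted p = 3.88e-10). For Nr4a1 and Dusp1 the day 21 libraries lay not only below those of day 17 but below every other library of the series. The AP-1 subunits Jun (774 and 818 CPM, then 231 and 247; log2 fold change -1.74) and Junb (314 and 332 CPM, then 33.5 and 20.2; -3.59) were also called, as were Klf4, Klf6 and Atf3. Atf3 was not called without day 17 replicate 2 or day 21 replicate 2 (log2 fold change -0.88 at its weakest). The 6 members that were not called were Jund, Ier3, Fosl1, Fosl2, Myc and Maff, and Fosl2 and Myc had nearly the same values on both days (21.9 and 22.4 CPM, then 19.3 and 22.6 for Fosl2, and 28.9 and 30.2 FPKM, then 24.6 and 27.3 for Myc).

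Against day 14 fewer were called: at day 21 none of the 20 members was higher and 5 were lower, with a median log2 fold change of -0.66, while the step into day 17 had raised 15 and lowered 1. Genes outside this list also turned at day 17. One was Cyr61, a matricellular growth regulator, at 41.8 and 46.7 CPM, then 551 and 567 and finally 83.3 and 92.2 on the 3 days (log2 fold change -2.67 ± 0.14, adjusted p = 2.55e-11). Btg2, an antiproliferative early response gene, fell from 349 and 352 CPM to 48.6 and 78.98 (log2 fold change -2.46 ± 0.23, adjusted p = 3.32e-07). Dnajb1, a co-chaperone, fell from 139 and 128 CPM to 45.8 and 43.1 (log2 fold change -1.59 ± 0.17, adjusted p = 2.14e-06). Both day 17 libraries of these 3 genes also stood above every other library of the series. The other 8 heat shock genes tested held 1 call, Hspa1b, which rose from 1.44 and 1.495 CPM to 7.89 and 5.12, and its reads can be shared with the near-identical Hspa1a.

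**Figure D2:**
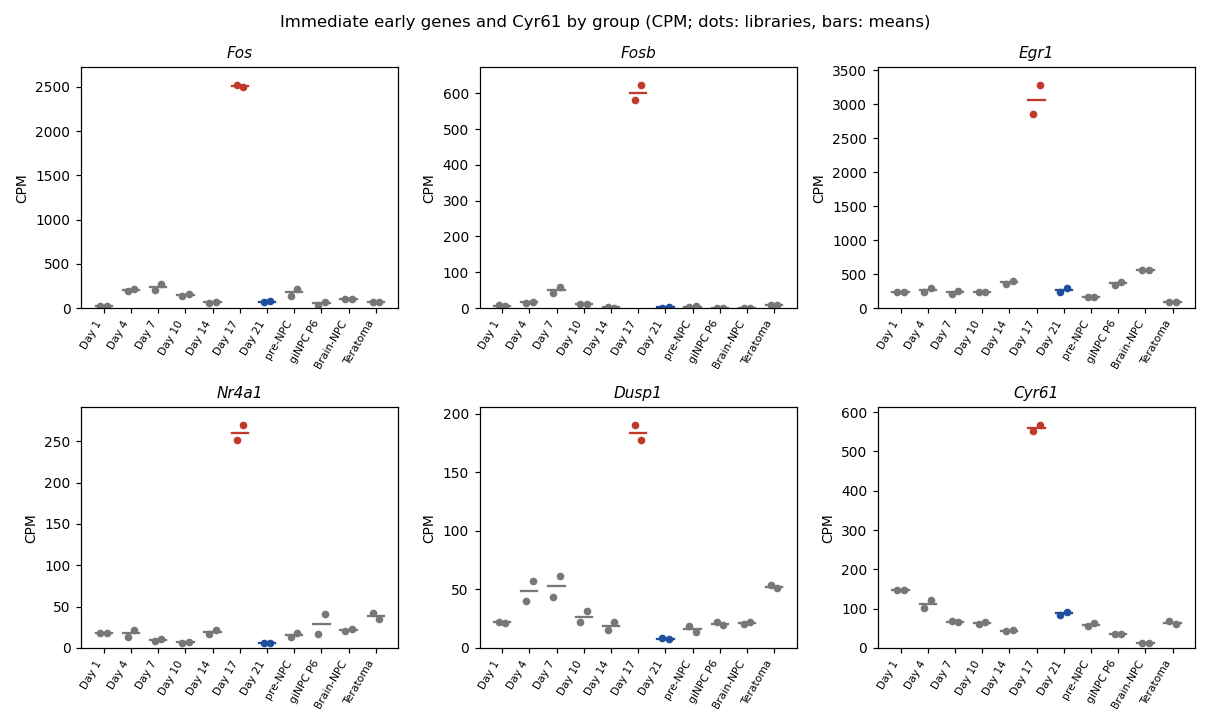
Level in CPM (vertical axes, linear, starting at 0) of 6 genes in each of the 11 groups; each dot is a library and each bar the mean of its group. The day 17 libraries (red) stand above all other libraries, and the day 21 libraries (blue) lie within the range of the others for Fos, Egr1 and Cyr61.

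Immediate early genes are classic targets of factors that bind the CArG box (serum response factor) and the cAMP response element, which holds TGACG. Both motifs were searched on both strands, the CArG box only in the strict form of CC, a fixed run of A or T alone, and GG. The promoter sequences of 5 of the genes that fell are therefore shown, as the 250 bases before the start site in RefSeq (GRCm38.p6), 5′ to 3′ on the strand of the gene, with matches in capitals: TGACG or its reverse complement CGTCA in Fos (chr12:85473640-85473889, plus strand), Fosb (chr7:19310046-19310295, minus strand), Nr4a1 (chr15:101266596-101266845, plus strand) and Dusp1 (chr17:26508473-26508722, minus strand), and the CArG box in Zfp36 (chr7:28379229-28379478, minus strand).
Fos: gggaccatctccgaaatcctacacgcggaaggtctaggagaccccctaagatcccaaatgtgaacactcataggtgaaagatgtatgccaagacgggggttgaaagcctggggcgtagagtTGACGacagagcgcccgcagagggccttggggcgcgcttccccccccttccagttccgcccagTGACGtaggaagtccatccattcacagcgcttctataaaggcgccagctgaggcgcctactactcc
Fosb: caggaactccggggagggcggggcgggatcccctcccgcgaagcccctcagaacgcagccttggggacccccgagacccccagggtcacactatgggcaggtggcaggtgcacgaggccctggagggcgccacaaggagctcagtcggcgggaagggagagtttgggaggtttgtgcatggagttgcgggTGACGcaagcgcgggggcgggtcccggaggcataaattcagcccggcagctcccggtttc
Nr4a1: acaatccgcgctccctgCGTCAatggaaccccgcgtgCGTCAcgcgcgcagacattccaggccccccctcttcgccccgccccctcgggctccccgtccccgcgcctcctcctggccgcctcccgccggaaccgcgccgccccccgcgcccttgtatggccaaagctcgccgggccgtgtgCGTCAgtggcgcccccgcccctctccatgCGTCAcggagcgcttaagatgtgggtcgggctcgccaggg
Dusp1: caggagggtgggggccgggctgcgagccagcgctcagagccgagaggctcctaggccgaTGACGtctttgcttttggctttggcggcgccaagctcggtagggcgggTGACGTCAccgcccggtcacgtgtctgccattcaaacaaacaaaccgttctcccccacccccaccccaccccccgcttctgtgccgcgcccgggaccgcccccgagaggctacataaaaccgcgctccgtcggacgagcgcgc
Zfp36: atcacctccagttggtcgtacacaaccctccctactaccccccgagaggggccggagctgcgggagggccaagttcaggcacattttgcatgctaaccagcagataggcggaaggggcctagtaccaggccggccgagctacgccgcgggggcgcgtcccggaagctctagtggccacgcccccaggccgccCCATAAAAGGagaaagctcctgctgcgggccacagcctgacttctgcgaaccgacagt
Of the 20 members 15 matched the promoter table by symbol, and Egr1, Egr3, Ier2, Fosl1 and Myc did not. Over all windows of a gene, TGACG or CGTCA occurred in 9 of the 15 matched members, against 19.8% of the 27025 genes in the table, and a CArG box in 2 (Egr2 and Zfp36), against 1.62%. The printed windows each held 1 of the 2 motifs. In Dusp1 a TGACG and a CGTCA overlapped, and their capitals run together. In Fos the matches began 129 and 66 bases before the start, and in Zfp36 the CArG box began 58 bases before it. A match describes the letters in the window and is neither a site nor a cause, and factor binding was not measured.

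Genes of oligodendrocyte precursors were lower where they were called, while the myelin gene Mbp rose. Of 18 precursor genes 9 were lower at day 21 (50.0%, background 2.82%) and none was higher (median log2 fold change -1.22). Gpr17, the receptor of committed precursors, had 18.7 and 13.9 CPM at day 14, 954 and 885 on day 17 and then 76.7 and 74.2 at day 21, which is 12.2-fold lower (log2 fold change -3.61 ± 0.37, adjusted p = 8.39e-07). Its day 17 libraries stood above every other library, the next being pre-NPC replicate 2 at 484 CPM. Gpr17 overlaps the gene Lims2 and the strand setting of the counting is not given, so reads of both genes could be mixed. The transcription factor Sox10 fell from 106 and 95.3 CPM to 25.9 and 32.3 (log2 fold change -1.79 ± 0.31, adjusted p = 0.000399). Nkx2-2, which drives precursors towards differentiation, fell from 22.3 and 28.5 FPKM to 7.83 and 9.59 (log2 fold change on log2(FPKM + 1) -1.44 ± 0.16, adjusted p = 1.68e-05). The matrix glycoprotein gene Tnr fell from 309 and 287 CPM to 62.8 and 69.3. Lhfpl3 fell from 150.4 and 161 FPKM to 54.5 and 45.8 (log2 fold change on log2(FPKM + 1) -1.62 ± 0.16, adjusted p = 5.52e-06) and the zinc finger factor gene Myt1 went from 18.1 and 16.4 FPKM to 4.55 and 4.97 (log2 fold change on log2(FPKM + 1) -1.67 ± 0.17, adjusted p = 1.14e-05). Sox8, Neu4 and Rlbp1 were the other called members. Neu4 was not called without day 21 replicate 2 (adjusted p = 0.0548).

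The general lineage factors did not pass. Olig2, needed for the lineage, had 1014 and 1069.7 CPM on day 17 and then 526 and 566 at day 21 (log2 fold change -0.93 ± 0.34, adjusted p = 0.077), with no overlap between the days, while Olig1 had 1466 and 1408 CPM and 1627 and 1363. Pdgfra, the receptor that marks early precursors, had 21.2 and 19.4 FPKM and then 9.54 and 9.94 (log2 fold change on log2(FPKM + 1) -0.99 ± 0.12, adjusted p = 3.37e-05), just under a 2-fold change. Against day 14, 6 precursor genes were higher at day 21 and 2 were lower, and at day 17 13 had been higher and none lower. The summed level of the list was 4245 and 4356 CPM at day 14, 7347 and 7426 on day 17 and then 4965 and 4613 at day 21.

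The myelin list split. Mbp, the myelin basic protein, rose from 2.34 and 1.91 FPKM to 9.28 and 10.8 (log2 fold change on log2(FPKM + 1) 1.82 ± 0.24, adjusted p = 7.52e-05). Ugt8a, which makes the main myelin galactolipid, fell from 55.2 and 54.3 CPM to 10.7 and 8.44 (log2 fold change -2.51 ± 0.37, adjusted p = 0.000114). Cnp, a phosphodiesterase of myelinating cells, fell from 95.9 and 81.2 FPKM to 37.5 and 41.5 (log2 fold change on log2(FPKM + 1) -1.14 ± 0.15, adjusted p = 8.18e-05). Fa2h, which hydroxylates myelin lipids, fell from 20.6 and 20.1 CPM to 1.26 and 1.51 (log2 fold change -3.86 ± 0.71, adjusted p = 0.000908). Bcas1, a gene of early myelinating cells outside the lists, fell from 129 and 128 FPKM to 23.96 and 25.6 (log2 fold change on log2(FPKM + 1) -2.33 ± 0.13, adjusted p = 2.81e-08). Myrf, the master regulator of myelination, was called lower (19.5 and 22.2 CPM, then 9.78 and 7.84; log2 fold change -1.24, adjusted p = 0.0484), but it lost the call when any 1 of the 4 libraries was left out (adjusted p up to 0.25). Of the 16 members 2 were higher and 4 lower. Mog, a late myelin gene, had no count in any of the 4 libraries, and Mag stayed at 0.3199 and 0 CPM and then 0.631 and 1.51. Mbp was called higher at day 21 than at day 14 too (log2 fold change 2.29, adjusted p = 4.67e-06).

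**Figure D3:**
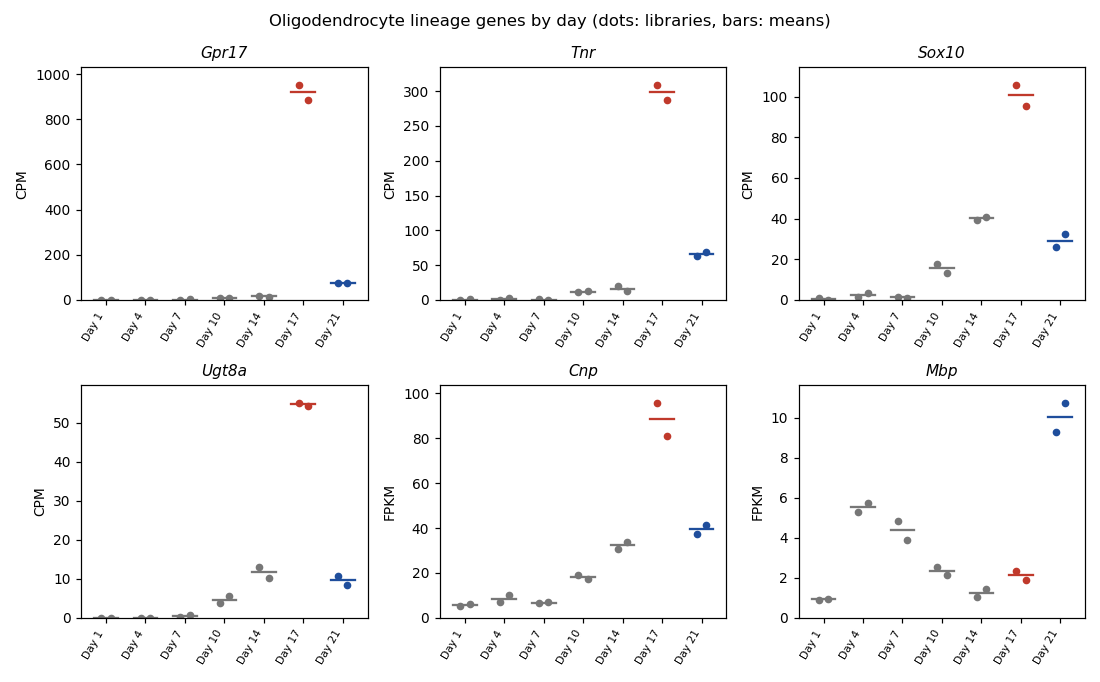
Level (vertical axes, CPM or FPKM as labelled, starting at 0) of 6 oligodendrocyte lineage genes on the 7 induction days; each dot is a library and each bar the mean of its day. Gpr17, Tnr, Sox10, Ugt8a and Cnp are highest at day 17 (red), whereas Mbp is highest at day 21 (blue).

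Notch pathway genes were lower where they were called. Of 16 tested 5 fell and none rose. Hes5, the target gene that marks active Notch signalling in progenitors, went from 61.6 and 56.6 CPM to 8.52 and 13.3 (log2 fold change -2.43 ± 0.27, adjusted p = 6.4e-06). Nrarp, a target that feeds back on the receptor, went from 37.7 and 49.6 CPM to 4.73 and 4.82 (log2 fold change -3.18 ± 0.29, adjusted p = 2.83e-07). The ligand genes Dll1 and Dll3 and the target Hey2 were the other 3, with Hey2 at 61.7 and 70.1 CPM and then 28.4 and 23.5 (log2 fold change -1.34 ± 0.32, adjusted p = 0.00663). Dll1 and Dll3 lost their call when any 1 of the 4 libraries was left out and Hey2 without day 17 replicate 2 or day 21 replicate 2, so the count of 5 became 3 without day 17 replicate 1, 2 without day 17 replicate 2, 3 without day 21 replicate 1 and 2 without day 21 replicate 2. Hes5 and Nrarp passed in every one of these fits. The receptors Notch1 (455 and 371 CPM, then 282 and 319), Notch2 and Notch3 were not called, and neither was Hes1 (27.5 and 50.2 CPM, then 40.7 and 39.8). Against day 14, 4 members were higher at day 21 and 1, Nrarp, was lower.

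Of 31 astrocyte and radial glia genes 7 were higher (22.6%, background 4.02%), 24 were not called and none was lower, with a median log2 fold change of 0.20. Aqp4, the water channel of astrocyte endfeet, went from 235 and 185 CPM at day 14 to 1272 and 1322 on day 17 and then 4096 and 3747 at day 21 (log2 fold change 1.60 ± 0.26, adjusted p = 0.0002). Clu, a secreted chaperone of astrocytes, rose from 222 and 169.6 CPM to 679 and 859 (log2 fold change 1.97 ± 0.27, adjusted p = 4.61e-05). Mt3, the brain metallothionein, rose from 322 and 413 CPM to 1047 and 1439 (log2 fold change 1.76 ± 0.28, adjusted p = 0.000189). Ntsr2, a neurotensin receptor of astrocytes, rose from 54.2 and 61.3 CPM to 155 and 142 (log2 fold change 1.36 ± 0.25, adjusted p = 0.000966), and its day 21 libraries lay above every other library of the series. Gja1, the gap junction protein connexin 43, had 339 and 345 CPM and then 725 and 659 (log2 fold change 1.02 ± 0.19, adjusted p = 0.000777), and without day 21 replicate 1 its log2 fold change was 0.94, under 2-fold. Apoe and Sparcl1 were called as well, Apoe at 7073 and 6596 CPM and then 16363 and 20000.5. Apoe did not pass when any 1 of the 4 libraries was left out (adjusted p up to 0.135), and Sparcl1 was under 2-fold without day 17 replicate 1 or day 21 replicate 2 (log2 fold change 0.94 at its lowest).

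Other well known astrocyte genes were not called. Gfap, the astrocyte filament, had 2846 and 2684 CPM on day 17 and then 2659 and 2854 at day 21. Slc1a3, the glutamate transporter of radial glia and astrocytes, had 1431 and 1679 CPM and 2071 and 1701 (log2 fold change 0.28 ± 0.16, adjusted p = 0.269). Aldh1l1 and Slc1a2 were not called either (725 and 599 CPM, then 503 and 580.0, and 33.1 and 30.8 FPKM, then 46.7 and 38.7). S100b and Aldoc also had no call, although their day 21 libraries lay above every other library of the series. Against day 14, by contrast, 22 of the 31 genes were higher at day 21 and none was lower, Gfap included (log2 fold change 2.30, adjusted p = 0.000197).

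Progenitor genes were split. Of 18 tested 2 were higher and 2 lower. Nes, the intermediate filament nestin, rose from 184 and 175 CPM to 398 and 378 (log2 fold change 1.11 ± 0.13, adjusted p = 5.05e-06), after 690.1 and 739 on day 14. The factor gene Sox3 fell from 135 and 193 CPM to 50.2 and 50.04 (log2 fold change -1.71 ± 0.29, adjusted p = 0.000424). Sox1 was called higher (1.599 and 3.42 CPM, then 6.63 and 10.2) but not without day 17 replicate 1 or day 21 replicate 2 (adjusted p = 0.185 at most), and Hes5 is the fourth called gene. Sox2, on chromosome 3, 34548927 to 34551382 (mm9), had 422 and 521 CPM and then 656 and 543 (log2 fold change 0.35 ± 0.14, adjusted p = 0.108). Pax6 had 18.95 and 21.3 FPKM and then 24.7 and 25.1 (log2 fold change on log2(FPKM + 1) 0.30 ± 0.13, adjusted p = 0.102). Neither passed the threshold. If Sox2 was among the delivered factors, its reads cannot be told from those of an introduced copy. Of 25 neuronal genes 1 was lower, Syt1, a vesicle calcium sensor, at 9.28 and 6.41 CPM and then 1.89 and 2.41, which passed without only 1 of the 4 libraries (day 17 replicate 2). Tubb3 had 51.8 and 34.4 CPM and then 33.8 and 36.5 (log2 fold change -0.30 ± 0.20, adjusted p = 0.364). Slc17a6 and Dlx5 had no value above 0 in the 4 libraries.

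The largest group rise was that of contractile genes. Of 10 smooth muscle genes 8 were higher at day 21 (80.0%, background 4.02%) and none was lower, with a median log2 fold change of 3.32, which is the same with Cnn1 at its bound below. Acta2, smooth muscle alpha actin on chromosome 19, 34315581 to 34329826 (mm9), had 9.33 and 11.4 CPM at day 14, 9.44 and 11.7 on day 17 and then 359.8 and 404 at day 21. It rose 36.3-fold (log2 fold change 5.18 ± 0.27, adjusted p = 2.55e-11). Tagln, an actin-binding protein of smooth muscle, went from 15.4 and 11.3 CPM to 379 and 316 (log2 fold change 4.69 ± 0.29, adjusted p = 4.28e-10). The day 21 levels of both genes exceeded those of every other induction day and lay below those of teratoma, where Acta2 had 904 and 901 CPM. Tpm2, a tropomyosin, rose from 14.9 and 10.04 CPM to 91.2 and 142 (log2 fold change 3.21 ± 0.25, adjusted p = 1.48e-08). Tpm1 rose from 134 and 132 FPKM to 317 and 353 (log2 fold change on log2(FPKM + 1) 1.33 ± 0.13, adjusted p = 5.52e-06). Myl9, a myosin light chain, rose from 23.03 and 16.2 CPM to 79.2 and 76.3 (log2 fold change 1.97 ± 0.31, adjusted p = 0.000179). Lmod1, an actin nucleator, rose from 0.7997 and 1.28 CPM to 13.6 and 8.74, and Cnn1, calponin, from no counts to 5.68 and 7.84 CPM. Cnn1 was at least 24.7-fold higher, taken against 3 counts over both day 17 libraries. Actg2, a smooth muscle actin with 1 count over both libraries at day 17, was the eighth, at a ratio of 37.1 with a 95% counting interval of 5.99 to 1531. The exceptions were Cald1 (399 and 462 CPM, then 543 and 503) and Myh11, the smooth muscle myosin heavy chain (0.205 and 0.171 FPKM, then 1.01 and 0.582). Des, the muscle filament desmin, rose from 3.68 and 4.06 CPM to 59.3 and 43.7 (log2 fold change 3.73 ± 0.26, adjusted p = 2.64e-09), as the one called gene of 12 striated muscle genes, among which Myod1 and Myog had no count in the 4 libraries. Against day 14, 7 smooth muscle genes were higher at day 21 and none was lower, and at day 17 none had been called against day 14.

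Contractile genes are classic targets of serum response factor. Myl9 was the one matched smooth muscle gene with a CArG box in the strict form in the 250 bases before its start. Its promoter is shown, with the box in capitals (chr2:156775214-156775463, GRCm38.p6, plus strand, RefSeq).
Myl9: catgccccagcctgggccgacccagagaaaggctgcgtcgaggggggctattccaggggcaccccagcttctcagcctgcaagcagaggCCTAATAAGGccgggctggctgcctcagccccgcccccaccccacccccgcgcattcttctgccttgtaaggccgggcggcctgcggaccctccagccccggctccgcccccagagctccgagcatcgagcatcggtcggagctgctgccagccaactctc
The box began 161 bases before the start. Of the 10 members 7 matched the table (Tagln, Actg2 and Myh11 did not), and 1 of the 7 held the box in the strict form. Boxes with a G or C inside the run of A or T were not searched, so the other matched genes, Acta2 included, may hold such a box.

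Of 32 fibroblast and matrix genes 18 were higher (56.2%), 13 were not called and 1, Cyr61, was lower, with a median log2 fold change of 1.05. Col1a1, the main chain of collagen I, had 395 and 381 CPM at day 14, 293 and 227 on day 17 and then 639.7 and 767 at day 21 (log2 fold change 1.44 ± 0.25, adjusted p = 0.000489). Col6a1 rose from 261 and 232 CPM to 663 and 757 (log2 fold change 1.53 ± 0.16, adjusted p = 9.6e-07). Ddr2, a collagen receptor, rose from 11.2 and 16.2 CPM to 54.9 and 55.5 (log2 fold change 2.03 ± 0.22, adjusted p = 2.02e-06). S100a4, a calcium-binding protein of motile fibroblasts, rose from 4.64 and 2.99 CPM to 32.2 and 32.3 (log2 fold change 3.04 ± 0.23, adjusted p = 1.48e-08). Bgn, Fap, Lox and Fn1 were among the others. Thy1, Lum, Dcn and Postn were not called, Thy1 with 31.99 and 24.1 CPM and then 46.1 and 59.99 (log2 fold change 0.91 ± 0.26, adjusted p = 0.021). Against day 14 only 2 of the 32 were higher at day 21 and 1 was lower, while the step into day 17 had lowered 12 and raised 1. The summed level was 11843 and 12174 CPM at day 14, 6509 and 6530.4 on day 17 and then 14390.4 and 14389 at day 21.

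Of 20 genes of reactive astrocytes, many of which fibroblasts and other cells also use, 11 were higher (55.0%), 9 were not called and none was lower. C3, the central complement component, had 89.2 and 82.1 CPM, then 6.72 and 2.14 and finally 75.7 and 94.05 on days 14, 17 and 21 (log2 fold change 4.18 ± 0.48, adjusted p = 4.06e-06). Fbln5, an elastic fibre protein, rose from 15.03 and 16.7 CPM to 63.4 and 79.3 (log2 fold change 2.17 ± 0.21, adjusted p = 4.65e-07). Osmr, the oncostatin M receptor, rose from 11.8 and 11.3 CPM to 35.3 and 55.8 (log2 fold change 1.97 ± 0.24, adjusted p = 7.16e-06). Cd44, the hyaluronan receptor, went from 9.299 and 8.79 FPKM to 19.4 and 19.1 (log2 fold change on log2(FPKM + 1) 1.01 ± 0.12, adjusted p = 2.86e-05), and without day 17 replicate 2 it was under 2-fold (0.97). Against day 14, 2 of the 20 were higher at day 21 and 5 lower, and 13 had been lower at day 17.

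Some markers of other cell types were called too, given here beside the background of 4.02% higher and 2.82% lower. Of 24 macrophage genes 3 were higher (12.5%) and none was lower. They were Cx3cr1 (17.6 and 22.9 CPM, then 76.1 and 78.4, log2 fold change 1.94), Laptm5 (32.1 and 31.6 CPM, then 70.4 and 80.5, log2 fold change 1.24) and Csf1r. Csf1r lost its call without day 17 replicate 2 or day 21 replicate 2 (adjusted p up to 0.409). Lyz2 had 432 and 389 CPM and then 424 and 525 (log2 fold change 0.21 ± 0.43, adjusted p = 0.84). The summed macrophage level was 899 and 798 CPM on day 17 and then 1074 and 1312 at day 21, after 2938 and 2835 at day 14. The 16 epithelial genes had no call and summed to 1.92 and 2.56 CPM on day 17 and then 3.16 and 2.41 at day 21. Of 12 endothelial genes Flt1 was higher and Kdr lower, both under 10 CPM in the 4 libraries, and Kdr was not called without 3 of the libraries in turn (day 17 replicate 1 or 2, or day 21 replicate 1; adjusted p up to 0.319). Pecam1, the defining endothelial marker, was at 0.177 and 0.171 FPKM and then at 0 in both day 21 libraries. Each endothelial call was 8.33% of its list. Of 8 cartilage genes 2 were lower (25.0%), and of 9 pluripotency genes 2 were lower (22.2%). Of 9 Schwann cell and neural crest genes 2 were lower (22.2%) and 1 was higher (11.1%). Among these calls Hapln1, Col9a1, Ngfr and Klf2 did not pass every fit with 1 of the 4 libraries left out. The part of these cell types in the contractile, matrix and reactive changes was not tested.

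**Figure D4:**
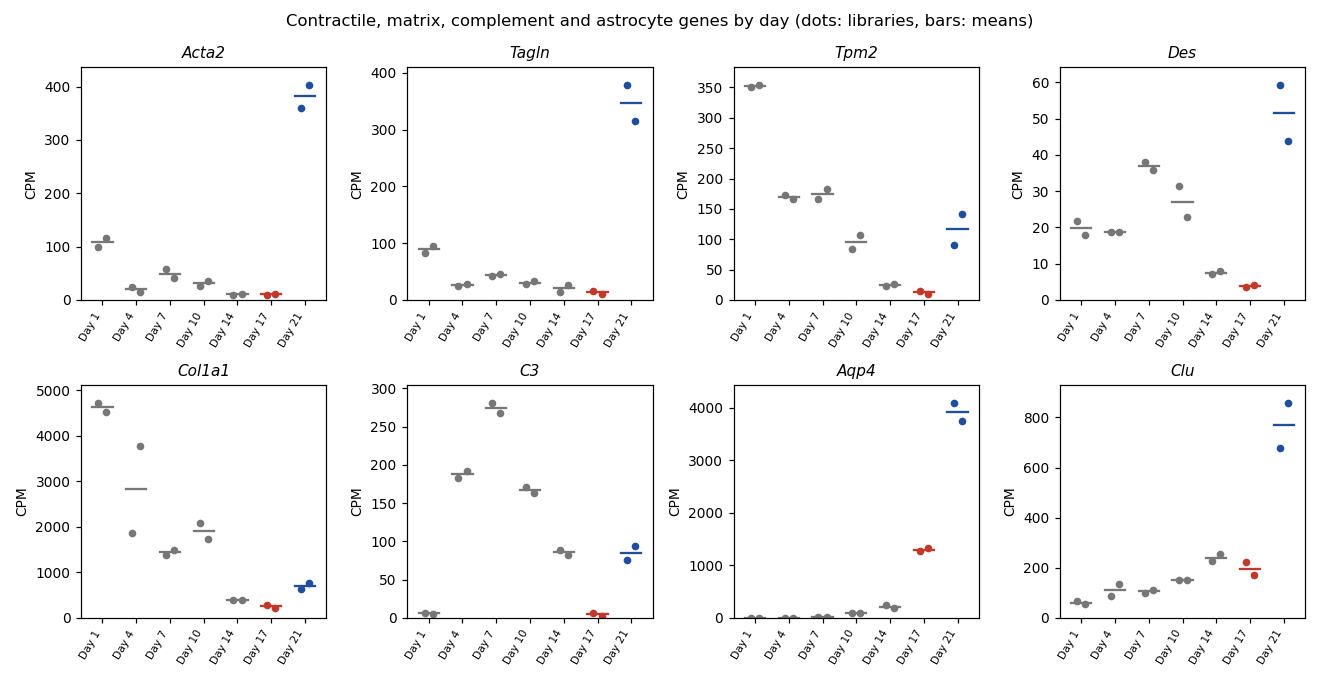
Level in CPM (vertical axes, starting at 0) of 8 genes on the 7 induction days; each dot is a library and each bar the mean of its day, with day 17 in red and day 21 in blue. Acta2, Tagln, Aqp4 and Clu are highest at day 21, Col1a1 remains far below its day 1 level, and C3 dips at day 17.

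Of 23 DNA replication genes 22 were lower at day 17 than at day 14. From day 17 to day 21 9 were higher (39.1%), 14 were not called and none was lower (median log2 fold change 0.83), whereas against day 14 none was higher at day 21 and 3 were lower. Mcm2, a subunit of the replicative helicase, had 209.8 and 194 CPM, then 59.8 and 61.1 and finally 119 and 135 on days 14, 17 and 21 (log2 fold change 1.07 ± 0.14, adjusted p = 2.14e-05). Pole, the leading strand polymerase, had 68.02 and 63.1, then 14.7 and 17.7 and finally 35.03 and 40.7 (log2 fold change 1.23 ± 0.20, adjusted p = 0.000209). Of the 9 genes 6 (Mcm2, Cdc45, Uhrf1, Tk1, Cdt1 and Pold1) did not pass every fit with 1 of the 4 libraries left out. Mcm2 was just under 2-fold without day 21 replicate 2 (log2 fold change 0.98). Uhrf1, which recruits the maintenance DNA methyltransferase, rose from 3.94 and 2.88 FPKM to 8.05 and 9.27 (log2 fold change on log2(FPKM + 1) 1.14 ± 0.14, adjusted p = 4.06e-05), and was under 2-fold without day 17 replicate 2 (0.97). Of 24 mitosis genes 1 was higher, Anln, a scaffold of the cleavage furrow, at 27.8 and 26.3 CPM and then 61.9 and 56.7 (log2 fold change 1.13 ± 0.21, adjusted p = 0.00081). Mki67 had 642 and 655 CPM, then 167 and 181 and finally 251 and 234 (log2 fold change 0.48 ± 0.16, adjusted p = 0.052 for the step). Ccnd1, the G1 cyclin, rose from 389 and 409 CPM to 899 and 810.3 (log2 fold change 1.10 ± 0.16, adjusted p = 5.7e-05), after 2604 and 2750.4 at day 14.

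Of 20 cell cycle inhibitors and p53 targets 7 were higher (35.0%) and 1, Btg2, was lower. Cdkn2b, the inhibitor p15, went from 17.6 and 16.9 CPM to 64.4 and 51.5 (log2 fold change 1.75 ± 0.21, adjusted p = 5.71e-06). Fas, a death receptor, rose from 13.9 and 19.2 CPM to 45.4 and 45.5 (log2 fold change 1.46 ± 0.23, adjusted p = 0.000189). Cdkn1a, the inhibitor p21, had 62.4 and 65.4 FPKM and then 139.9 and 138 (log2 fold change on log2(FPKM + 1) 1.11 ± 0.28, adjusted p = 0.00862), the level of day 14 (141 and 145). Cdkn1a was not called without day 17 replicate 1 (adjusted p = 0.0532). The list count was 4 without day 17 replicate 1. Phlda3 lost its call when any 1 of the 4 libraries was left out, Bbc3 without replicate 1 of either day and Ccng1 without day 21 replicate 1. Mdm2, a direct p53 target, was not called (127 and 125 CPM, then 125 and 138).

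Of 23 genes of BMP and TGF-beta signalling 4 were higher, all on the TGF-beta and activin side, and 2 on the BMP side were lower. Inhba, a subunit of activin, rose from 1.44 and 3.42 CPM to 21.1 and 12.1 (log2 fold change 2.82 ± 0.37, adjusted p = 2.69e-05). The ligand gene Tgfb3 rose from 34.5 and 32.04 CPM to 76.1 and 72.3 (log2 fold change 1.15 ± 0.24, adjusted p = 0.00258). Tgfb1 had 8.96 and 8.54 CPM and then 17.04 and 20.5, not called without day 21 replicate 2 (log2 fold change 0.96). The lower genes were the ligand Bmp4 (24.3 and 29.1 CPM, then 9.78 and 8.44) and the BMP target Id1 (189.8 and 141 CPM, then 54.3 and 75.1). Bmp4 lost its call when any 1 of the 4 libraries was left out (adjusted p up to 0.16) and Id1 without day 17 replicate 1 or day 21 replicate 1 (0.115). Bmp5, a ligand outside the list, fell from 59.98 and 77.3 CPM to 5.37 and 2.41 (log2 fold change -4.14 ± 0.47, adjusted p = 3.66e-06). Of 19 Wnt genes 3 were higher, led by the secreted modulator Sfrp1 (18.6 and 14.5 CPM, then 72.6 and 53.4; log2 fold change 1.92), while Wnt5a was not called without replicate 1 of either day and Dkk3 not without day 21 replicate 2. The Wnt target Axin2 was not called (66.7 and 68.4 CPM, then 91.2 and 85.01). Dusp6, the phosphatase that marks FGF and ERK signalling, fell from 423 and 375 CPM to 163 and 186 (log2 fold change -1.19 ± 0.18, adjusted p = 9.03e-05), while Spry1, Spry2 and Spry4 were not called. Gli1, the target of Hedgehog signalling, was without a read in both day 17 libraries and reached 0.631 and 2.41 CPM, at least 5.62-fold higher against 3 counts over the group. It was not called without day 17 replicate 1, day 17 replicate 2 or day 21 replicate 2 (adjusted p up to 0.269).

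Of 32 tested Hox genes 7 were higher (21.9%) and 1, Hoxc4, was lower, and 6 of the 7 carry the numbers 9, 10 or 11, which belong to the posterior part of each cluster. Posterior and anterior genes were not tested against each other. Hoxa3, the seventh, was not called without replicate 1 of either day (adjusted p up to 0.146), and Hoxc4 not without day 21 replicate 2 (0.073). Hoxa9, on chromosome 6, 52174053 to 52177369 (mm9), had 9.33 and 7.86 CPM, then 0.9596 and 1.71 and finally 92.2 and 66.02 on days 14, 17 and 21 (log2 fold change 5.91 ± 0.68, adjusted p = 5.6e-06). Hoxb9 had 36.4 and 34.5, then 8.64 and 7.69 and finally 106 and 93.1 (log2 fold change 3.60 ± 0.37, adjusted p = 1.5e-06). Hoxc9 and Hoxc10 rose from 26.5 and 37.6 CPM to 138 and 128 and from 3.998 and 4.91 CPM to 48.3 and 51.2. Hoxa10 and Hoxa11 completed the set, with Hoxa10 at 1.21 and 0.915 FPKM and then 10.7 and 8.92 (log2 fold change on log2(FPKM + 1) 2.39 ± 0.45, adjusted p = 0.00149). Of the other tested genes with the numbers 9 to 13, Hoxd9 (17.8 and 16.9 CPM, then 12.9 and 12.7), Hoxd10, Hoxd11, Hoxc13 and Hoxd13 were not called, the last 4 under 5 CPM in all 4 libraries. The anterior genes Hoxa2, Hoxb2 and Hoxb3 were not called. Against day 14, 6 Hox genes were higher at day 21 and none lower. Of 12 midbrain and hindbrain genes Pax7, a dorsal patterning factor, started at 24.8 and 26.7 CPM on day 14, was without a read in both day 17 libraries and returned to 11.05 and 8.14, at least 34.8-fold higher than 3 counts over the group. Pax3 fell from 3.81 and 3.66 FPKM to 0.8499 and 0.974 (log2 fold change on log2(FPKM + 1) -1.31 ± 0.21, adjusted p = 0.00037). Nkx6-1, a ventral patterning factor on chromosome 5, 102088216 to 102093730, rose from 0.9596 and 0.854 CPM to 20.5 and 24.1 (log2 fold change 4.58 ± 0.71, adjusted p = 0.000214), above every other library of the series. No forebrain gene of 13 was called, and their summed level was 26.7 and 23.7 CPM on day 17 and then 31.2 and 25.6 at day 21.

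Of 19 imprinted genes 12 were lower at day 17 than at day 14. From day 17 to day 21 5 were higher (26.3%), 14 were not called and none was lower. Igf2, a fetal growth factor, had 131 and 145 FPKM, then 9.57 and 10.7 and finally 46.00 and 40.3 on days 14, 17 and 21 (log2 fold change on log2(FPKM + 1) 1.99 ± 0.23, adjusted p = 2.96e-05). Its neighbour H19, a non-coding RNA, had 1946 and 2246 CPM, then 196 and 203 and finally 715 and 694. Dlk1 rose from 0.776 and 0.664 FPKM to 9.18 and 9.63 (log2 fold change on log2(FPKM + 1) 2.60 ± 0.22, adjusted p = 1.42e-06). Its neighbour Meg3 rose from 3.08 and 2.304 FPKM to 14.7 and 12.5 (log2 fold change on log2(FPKM + 1) 1.99 ± 0.20, adjusted p = 8.28e-06). Plagl1, a zinc finger factor gene, rose from 8.16 and 6.62 CPM to 23.99 and 30.7 (log2 fold change 1.88 ± 0.27, adjusted p = 6.36e-05). Against day 14 none of the 19 was higher at day 21 and 8 were lower.

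The 12 largest rises, ranked on counts, held Vgf and Penk. Vgf, a neuropeptide precursor on chromosome 5, 137506165 to 137509221 (mm9), had 19.7 and 24.4 CPM on day 14, 2 reads in total on day 17 and 109 and 88.3 CPM on day 21. This is a ratio of 539 with a 95% interval of 148 to 4457 that covers counting error only. Penk, the proenkephalin gene, had 49.5 and 52.5 CPM, then 3.04 and 1.495 and finally 98.8 and 149.8 on days 14, 17 and 21 (log2 fold change 5.71 ± 0.32, adjusted p = 1.18e-10). Both were lower at day 17 than on either side. Outside these 12, the same order of the days was seen in Ptprn, a dense-core vesicle protein (37.6 and 43.8 CPM, then 4.48 and 7.26 and finally 57.1 and 66.02), in the chemokine Ccl11 (32.2 and 29.98 CPM, then 1.599 and 1.92 and finally 16.7 and 20.5), in S100a6 (137 and 115 CPM, then 35.5 and 26.3 and finally 153 and 158) and in Apln, the peptide ligand apelin (64.9 and 71.9 CPM, then 9.76 and 10.5 and finally 49.5 and 41.00). Ltbp2, a matrix protein of elastic fibres, rose from 0.6397 and 0.427 CPM to 9.15 and 13.6 (log2 fold change 4.33 ± 0.50, adjusted p = 6.21e-06). Ltbp2, Lix1 and Nrn1 were also among the 12. Lix1 and Nrn1 each passed without only 1 of the 4 libraries (day 21 replicate 2 for Lix1 and day 21 replicate 1 for Nrn1; adjusted p up to 0.146 and 0.133 in the others).

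Clustered protocadherins, cell surface proteins of which each neuron expresses its own selection, were looked at because 5 of them stood among the 24 largest changes as ranked on counts, although 4 of the 5 are given here by FPKM. They were gathered after their values were seen and get no test as a group. Of 53 tested 8 were higher and 11 lower, with backgrounds of 4.02% and 2.82%. In the beta cluster 1 of 21 was higher and 6 lower, in the gamma cluster 6 of 22 were higher and 5 lower, and in the alpha cluster 1 of 10 was higher. That alpha gene, Pcdha1, was read from counts because it was not tested on FPKM, with 0 reads on day 17 and 20 on day 21. Of the 19 calls 7 (Pcdha1, Pcdhb2, Pcdhb4, Pcdhb5, Pcdhb10, Pcdhb13 and Pcdhga10) did not pass every fit with 1 of the 4 libraries left out. Pcdhga11 had 2.05 and 2.53 FPKM at day 14, 30.6 and 33.2 on day 17 and then 0.542 and 0.602 at day 21 (log2 fold change on log2(FPKM + 1) -4.39 ± 0.12, adjusted p = 2.67e-11). Pcdhga5 fell from 25.1 and 26.8 FPKM to 2.17 and 1.17 (log2 fold change on log2(FPKM + 1) -3.36 ± 0.29, adjusted p = 1.39e-06). In the other direction Pcdhga8 had 5.11 and 5.93 FPKM, then 0.583 and 0.309 and finally 12.3 and 9.94 (log2 fold change on log2(FPKM + 1) 3.07 ± 0.37, adjusted p = 3.85e-05). Pcdhga12 had 1.25 and 2.07, then 0.168 and 0.435 and finally 8.66 and 6.93 (log2 fold change on log2(FPKM + 1) 2.76 ± 0.16, adjusted p = 4.43e-08). The beta gene Pcdhb6 fell from 22.1 and 25.4 CPM to 0.947 and 2.11 (log2 fold change -3.93 ± 0.70, adjusted p = 0.000596). Gamma genes share 3 constant exons at their 3′ end, so how the authors' tool divided the shared reads sets their FPKM in part, and these values are uncertain. The read counts of the 4 gamma genes named moved the same way. Summed over both libraries, day 17 and then day 21 had 1155 and 5 reads for Pcdhga11 and 826 and 22 for Pcdhga5. Pcdhga8 had 19 and 206 reads and Pcdhga12 had 13 and 161. The summed FPKM of the gamma cluster was 375 and 394 on day 17 and then 328 and 320.0 at day 21.

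**Figure D5:**
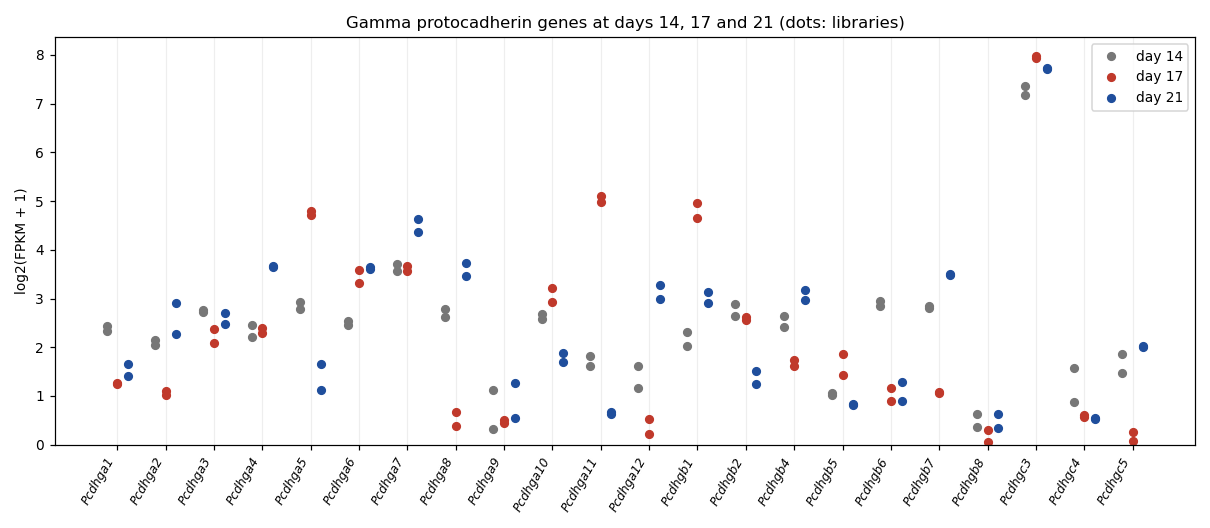
Level of 22 gamma protocadherin genes as log2(FPKM + 1) (vertical axis) at day 14 (grey), day 17 (red) and day 21 (blue); each dot is a library. Pcdhga5, Pcdhga11 and Pcdhgb1 are highest at day 17, and Pcdhga8, Pcdhga12 and Pcdhgb7 are lowest there.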

How the data were processed

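Per the submitters' processing notes, reads were processed with TopHat2 2.0.12, Cufflinks 2.2.1, HTSeq 0.6.0 and edgeR on mm9. The role of each tool and the counting strand are not stated. The authors deposited read counts for 29243 transcripts per library and FPKM per transcript. Both were summed per gene (in the counts 23130 genes, 22517 with a symbol). Among genes with at least 1000 counts expected from FPKM, 2572 of the 2769 with several transcripts held under 0.5 of the expected counts, as did 312 of the 9652 with 1 transcript. A gene under 0.5 was therefore read from its FPKM, or from its counts where it was not tested on FPKM. Rows without a feature took 50.32% to 56.31% of the reads of the 4 libraries and were left out.

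Counts were tested with edgeR 4.0.16 in R 4.3.3 (TMM, low-count filter, quasi-likelihood, 1 mean per group over all 22 libraries), and log2(FPKM + 1) with limma 3.58.1 (FPKM of at least 1 in 2 libraries, 33 genes with a failed estimate dropped), with Benjamini-Hochberg adjustment over all genes tested. The standard error of a log2 fold change on counts is its size divided by the square root of F. On simulated data with 200 genes changed 4-fold, edgeR recovered 92% of them with 5 false calls among 14073 genes, and limma 98% with 0 among 15737. The changed genes were drawn from those with at least 5 CPM at day 17, or for limma a mean log2(FPKM + 1) above 2. The noise was drawn from the spread fitted to these data. These rates therefore do not cover genes of a few CPM or an error shared by the libraries of a day. DESeq2 1.42.0 was an alternative.

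The members and lists were chosen with earlier results of these data known. The genes named are the 12 largest rises and falls by the log2 fold change on counts, among genes called on counts with at least 10 CPM and no overlap between days (those given by FPKM kept that rank), the 5 clearest turning genes per direction, up to 4 called members per list by adjusted p, and a fixed set. Other list members, the protocadherins and the comparison of lists with day 14 were chosen after values were seen. Counting intervals are exact and cover counting error only. Tables and figures used python 3.11.15, pandas 2.3.3, scipy 1.17.1 and matplotlib 3.10.9.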

Additional observations from a re-analysis of the deposited data

Results flagged for a closer look

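The 10 genes below are the 5 clearest turning genes per direction, chosen by their p in the tests of day 17 against both neighbours. That their steps ran in opposite directions follows from this choice, so their p-values are no independent support. The genes also differed by edgeR's test of the difference between the steps, which called 2519 genes in all. The values below are the later log2 fold change minus the earlier one, and the day 17 libraries enter both.

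Among genes that peaked at day 17 the difference was -16.96 for Fosb (adjusted p = 3.47e-14), -10.44 for Fos (1.78e-14), -7.94 for Ier2 (5.86e-12), -6.54 for Egr1 (2.56e-14) and -6.33 for Cyr61 (1.78e-14). Among genes that were lowest at day 17 it was 10.13 for Penk (adjusted p = 3.11e-10), 6.24 for Ptprn (6.4e-09), 7.54 for Ccl11 (1.07e-08), 4.35 for S100a6 (1.81e-08) and 4.92 for Apln (1.45e-08). Both libraries of day 17 lay on the same side of all 4 libraries of days 14 and 21 in each of the 10 genes, which the choice also favoured.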

How the results depend on the processing

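With no minimum fold change 982 genes were higher and 895 lower at day 21, at least a 1.5-fold change gave 763 lower, and a test against a 1.5-fold change gave 355 higher and 203 lower. A pseudocount of 0.1 on FPKM gave 819 higher and 642 lower. Leaving out each replicate in turn gave 411 to 485 higher and 241 to 323 lower genes on counts, 403 to 468 and 330 to 399 on FPKM, 1489 to 2225 genes with different steps, 104 to 138 highest at day 17 and 136 to 192 lowest there. Other scalings, filters, sets of libraries and DESeq2 kept the counts within 1.5 times (DESeq2 gave 697 higher and 405 lower). DESeq2's size factors and upper-quartile scaling moved the median of the 11433 genes with a mean of at least 1 CPM by 0.023 and 0.0377 on the log2 scale. Same-numbered libraries of days 17 and 21 did not deviate together (correlation -0.179). Other pairs of days gave values of like size, such as -0.352 for days 4 and 17 and 0.23 for days 4 and 21. The correlation therefore cannot show whether the numbers pair the libraries. A replicate block gave 620 higher and 399 lower genes (424 and 361 on FPKM). With it 2546 genes had different steps, 176 were highest and 239 lowest at day 17. The crossed pairing, chosen after seeing the data, gave 698 and 476. Directions reversed only in genes without a call: Gfap had a log2 fold change of 0.0186 with DESeq2 and with its size factors, 0.0335 with upper-quartile scaling, 0.0116 in a fit of the 4 libraries (0.0113 and 0.0114 with a block or crossed block), 0.0037 in the 14 induction libraries, and between -0.0585 (without day 21 replicate 2) and 0.0429 (without day 21 replicate 1) when each library was left out, with 0.0368 without day 17 replicate 1, and Tubb3 between -0.5641 (without day 17 replicate 2) and 0.0291 (without day 17 replicate 1). The cause was not tested. Of the 129 named genes 15 to 20 lost their call when 1 library was left out. The day 21 libraries, the shallowest of the series, limit what can be seen in genes of a few CPM.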

Other observations

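Some further lists are given beside the background of 4.02% higher and 2.82% lower. Of 14 antigen presentation genes 2 were lower (14.3%). H2-D1, a class I heavy chain, fell from 88.3 and 86.1 CPM at day 17 to 26.5 and 31.7 at day 21 (log2 fold change -1.58 ± 0.27, adjusted p = 0.000437), and H2-K1 (70.5 and 52.8 CPM, then 16.1 and 38.6) lost its call without replicate 1 of either day. Both belong to a family of near-identical genes whose reads can be shared. Of 22 interferon response genes Ifit3 was higher (5.44 and 7.26 CPM, then 20.2 and 26.2; log2 fold change 1.89 ± 0.36, adjusted p = 0.00101) and Rsad2 lower (4.55% each), the latter not without replicate 1 of either day. Of 24 genes of cholesterol and fatty acid synthesis 2 were lower (8.33%), Lss (77.1 and 63.7 CPM, then 29.7 and 38.3; not without replicate 1 of either day) and Acat2, an acetyl-CoA acetyltransferase, at 148 and 121 CPM and then 47.02 and 58.2 (log2 fold change -1.36 ± 0.17, adjusted p = 1.27e-05). Of 23 glycolysis and hypoxia genes 2 were lower (8.7%) and 1 higher (4.35%). Pdk1, a pyruvate dehydrogenase kinase, fell from 50.5 and 46.4 CPM to 20.8 and 23.8 (log2 fold change -1.12 ± 0.19, adjusted p = 0.000393). Bnip3 was lower (41.9 and 48.5 CPM, then 24.9 and 15.1) but not without replicate 2 of either day. Slc2a1, the glucose transporter, was higher (39.5 and 38.2 CPM, then 78.6 and 90.1), but not without day 21 replicate 2.

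Of 10 genes of ependymal cells and motile cilia 2 were higher (20%). Foxj1, the master regulator of motile cilia, rose from 13.6 and 11.96 CPM to 42.3 and 45.2 (log2 fold change 1.77 ± 0.40, adjusted p = 0.00434), and Rsph1, a radial spoke protein, had 0.9596 and 0.641 CPM and then 8.84 and 3.01, not called without day 21 replicate 1. Of 8 adipocyte genes 2 were higher (25.0%): Pparg had 0.342 and 0.278 FPKM and then 2.16 and 1.58, and Cebpa 5.76 and 7.69 CPM and then 19.3 and 25.9, neither in every fit with 1 library left out. None of 19 genes of the unfolded protein and amino acid stress response was called.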
